A study of Homo sapiens with 24 samples.

Results

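MAPRE1 encodes EB1, the protein that marks the growing end of a microtubule, and its RNA was followed here with that of 6 genes for plus-end proteins and of STMN1, which encodes the tubulin-binding protein stathmin. They were measured in P3HR1, an established Burkitt lymphoma cell line of B-cell origin, with and without an induced miR-28 precursor. The members were all probe sets whose single gene symbol in the platform annotation was MAPRE1, MAPRE2, MAPRE3, CLIP1, CLASP1, CLASP2, DCTN1 or STMN1. These 8 of the 19775 genes with a probe set of their own had 26 of the 54613 probe sets that were not array controls. MAPRE1 was chosen by a measured value, its lower signal in miR-28 cells after 24 h, and the other 7 genes by their place in the same system. Its values in every comparison that uses the 24 h arrays are therefore a description with no test, and only its difference at 12 h was tested.

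RNA came from 24 Affymetrix arrays in 4 groups of 6, one array per sample. Control cells carried the doxycycline-inducible pRTS1 vector and made green fluorescent protein (GFP) alone. miR-28 cells carried the same vector with the miR-28 precursor beside GFP. Each vector was present in 2 bulk populations, A and B, which are mixed pools and not single clones, and each population was induced 3 times for 12 h and 3 times for 24 h. All 4 groups received doxycycline. The dose is 0.1 ug/ml in one label and 1 ug/ml in another, for all 24 arrays alike, and which is right was not settled. No array came from cells without doxycycline, so a gap between vectors that preceded induction cannot be told apart from one that followed it. Separate inductions of the same pools are the replicates here, so the p-values measure mostly the spread between inductions.

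Growing microtubule ends are recognised by the EB proteins, which sit on the newly added tubulin and recruit most other plus-end proteins. CLIP-170, the CLASPs and the dynactin subunit p150Glued are among the proteins they recruit, and these link the ends to cargo, to the cell cortex and to kinetochores. Stathmin works in the opposite sense, binding tubulin dimers and favouring shrinkage. In dividing cells such as lymphoma cells this system builds and orients the mitotic spindle. A microRNA lowers an mRNA by guiding Argonaute to it, chiefly through base pairing of its seed, and the miR-28 precursor yields miR-28-5p and miR-28-3p. The sequence of miR-28-3p is shown because it is a product of the induced precursor; it comes from RefSeq at chr3:188688834-188688855 of GRCh38.p14, plus strand, 5′ to 3′, with the seed (bases 2 to 8) in capitals.
hsa-miR-28-3p: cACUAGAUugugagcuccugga

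The arrays were similar in overall quality. Median signals lay between 73.4 and 93.4 on an array, and arrays of 1 group correlated at 0.94 to 0.96. B-cell markers had a median signal of 9220 with 8 of 9 above the filter on low values, and their summed level lay between 65100 and 76000 in the 4 groups. T-cell, myeloid and NK-cell markers had medians of 48.8, 44.6 and 34.9, with 1 of 6, 1 of 6 and 0 of 4 above the filter. Fibroblast and epithelial markers had a median of 92.4, with DCN at 515 and 3 of 6 above the filter. Only markers above the filter were tested, and none of these differed between the vectors at an adjusted p under 0.05 (limma). The log2 ratio of 3′ to 5′ ACTB control signal, a sign of RNA quality, was highest on control array B2 at 24 h (1.59) and miR-28 array B2 at 12 h (1.05).

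Of the 26 member probe sets, 16 had a mean log2(signal + 8) above 6.108, the median of all probe sets, and were tested among 27306. The 2 probe sets of MAPRE1, 2 of the 3 of MAPRE2, 3 of the 6 of CLIP1, both of CLASP1, 5 of the 6 of CLASP2, the 1 of DCTN1 and 1 of the 2 of STMN1 were above it. None of the 4 probe sets of MAPRE3, the EB family member known from neurons and muscle, was. Signals of the MAPRE3 probe sets ran from 4.1 to 198 with a median of 18.9, well under the array medians. Over all 10 dim members the signals ran from 1.44 to 198, and 92.1% of the 240 values were below 100. Nearest to the filter were CLASP2 238048_at, just outside with a mean of 5.62, and CLIP1 242287_at, just inside with 7.31.

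MAPRE1 stood in the same order on both of its probe sets at 24 h, with every miR-28 array below every control array. On probe set 200713_s_at the 6 control arrays at 24 h read 11030, 11530 and 12130 in population A and 10250, 13180 and 11810 in population B. The 6 miR-28 arrays read 6464, 6876 and 6886 in population A and 6330, 6168 and 6716 in population B. The miR-28 arrays were thus close to each other and far from the lowest control array, in both populations. The means were 11650 ± 998 and 6573 ± 299 (SD, n = 6), a difference of -0.82 ± 0.09 (log2, SE), or 1.77-fold lower, with a 95% interval of -1.01 to -0.63. Among all 27306 probe sets this was the fall of rank 371, and 1.36% of them had every miR-28 array below every control array at 24 h.

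The other probe set, 200712_s_at, gave 4149, 4894 and 4457 in control population A at 24 h and 3800, 3404 and 4173 in population B. Its miR-28 arrays read 2641, 2791 and 2222 in population A and 2488, 2605 and 2836 in population B. Here too the groups did not overlap, although the gap between the highest miR-28 array and the lowest control array was smaller. The means of 4146 ± 515 and 2597 ± 223 (SD, n = 6) differed by -0.67 ± 0.09 (log2, SE), or 1.59-fold, with a 95% interval of -0.86 to -0.48.

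**Figure D1:**
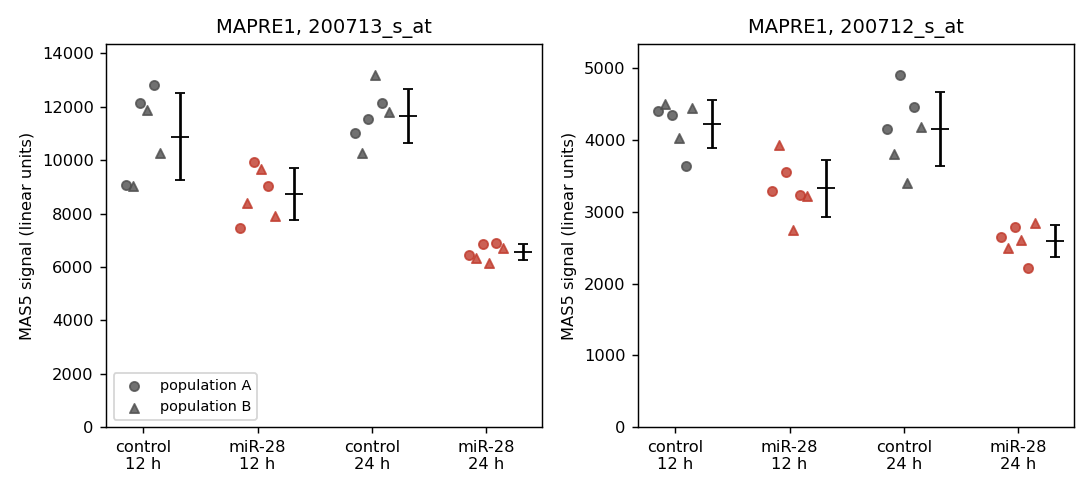
MAS5 signal of both MAPRE1 probe sets on each of the 24 arrays (linear axis from 0), by vector and hours of induction; circles are population A, triangles population B, and the bar beside each group is the mean with 1 SD (n = 6). At 24 h the miR-28 arrays (6168 to 6886 and 2222 to 2836) all lie below the control arrays (from 10250 and from 3404), while at 12 h the groups overlap.

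At 12 h, in arrays that played no part in singling MAPRE1 out, both probe sets were lower in miR-28 cells by a smaller amount, and the groups overlapped. These arrays came from the same bulk populations as those of 24 h, so the values at 12 h are not independent of that choice. Control arrays of 200713_s_at read 9086, 12130 and 12800 in population A and 9041, 11890 and 10260 in population B. The miR-28 arrays read 7477, 9921 and 9016 in population A and 8410, 9670 and 7925 in population B. All 6 lay below the control median of 11070 and 4 of 6 below every control array. The difference was -0.31 ± 0.09 (log2, SE; 95% interval -0.50 to -0.12), or 1.24-fold lower, and it was not called over all probe sets (limma, adjusted p = 0.258). In these bulk RNA samples, fewer cells that express the gene and less of its RNA per cell cannot be told apart.

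For 200712_s_at the control arrays at 12 h read 4395, 4342 and 3630 in population A and 4493, 4026 and 4438 in population B. Against these the miR-28 arrays read 3284, 3551 and 3227 in population A and 3922, 2741 and 3217 in population B. All 6 were below the control median and 5 of 6 below every control array. The difference of -0.35 ± 0.09 (log2, SE; 95% interval -0.54 to -0.16), 1.27-fold lower, was not called over all probe sets either (limma, adjusted p = 0.157). Tested as single values with an exact two-sided permutation test over the 12 arrays at 12 h, chosen after the data were seen, the probe sets gave p = 0.026 and p = 0.00433. Adjusted over the 5 values tested in this way these were 0.0325 and 0.0216. The smallest unadjusted p that 924 splits can give is 0.00216. These splits moved single arrays freely, so repeated inductions of the same bulk populations counted as separate units. The p-values therefore describe the spread between inductions and cannot show whether the vectors differ beyond the spread between populations.

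Across the 4 groups, the level of 200713_s_at was highest in control cells at 24 h (11650 ± 998), then in control cells at 12 h (10870 ± 1630), miR-28 cells at 12 h (8736 ± 970) and miR-28 cells at 24 h (6573 ± 299, SD, n = 6 each). Its control levels did not differ beyond their spread (0.11 ± 0.10, log2, SE), while miR-28 cells were lower at 24 h than at 12 h without overlap (-0.40 ± 0.10). The share of all probe sets without overlap between these times is not given here. The second MAPRE1 probe set had 4221 ± 333 and 4146 ± 515 in control cells at the earlier and later time, and 3323 ± 393 and 2597 ± 223 with miR-28. Its change with time was -0.03 ± 0.10 in control cells and -0.35 ± 0.10 in miR-28 cells, and on this probe set the miR-28 arrays of 12 h and 24 h overlapped. The miR-28 difference was larger at 24 h than at 12 h by -0.51 ± 0.14 and -0.32 ± 0.13 on the probe sets, again as a description. The 2 probe sets correlated at r = 0.754 over the 24 arrays, which share the group differences. Their deviations from the group means gave r = -0.331, so within groups they did not move together.

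Both populations showed the lower MAPRE1 signal at both times. On 200713_s_at the miR-28 difference was -0.36 in population A and -0.26 in population B at 12 h, and -0.78 and -0.87 at 24 h. On 200712_s_at it was -0.29 and -0.40 at 12 h, and -0.82 and -0.52 at 24 h. At 12 h the difference between the populations was 0.10 ± 0.21 and -0.11 ± 0.19 (log2, SE; limma, adjusted p = 0.994 for both). The letters are not known to pair a control population with a miR-28 population.

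MAPRE2 encodes EB2, another EB protein, and none of its probe sets was called between the vectors. Probe set 202501_at ran from 5089 to 5961 in control cells at 12 h (median 5796) and from 5007 to 6142 in miR-28 cells (median 5526). At 24 h it ran from 4889 to 6155 in control cells (median 5533) and from 4768 to 5514 in miR-28 cells (median 5222). The groups overlapped at both times, with 5 of 6 miR-28 arrays below the control median at 12 h and 6 of 6 at 24 h. At 24 h 3 of 6 control arrays, at 5637, 5870 and 6155, lay above every miR-28 array. The differences were -0.04 ± 0.07 at 12 h and -0.09 ± 0.07 at 24 h (log2, SE; limma, adjusted p = 0.959 and 0.581), and the 95% interval at 24 h was -0.23 to 0.05. The dimmer probe set, 213489_at, differed by 0.00 ± 0.12 and 0.17 ± 0.12, with all 6 miR-28 arrays above the control median at 24 h (limma, adjusted p = 0.559).

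The MAPRE1 signal was also compared with that of MAPRE2 within each array at 12 h. The log2 difference between 200713_s_at and MAPRE2 202501_at was 0.92 ± 0.18 in control cells and 0.65 ± 0.11 in miR-28 cells (SD, n = 6), lower by -0.27 (exact two-sided permutation test, p = 0.00866, 0.0216 adjusted over the same 5 values). With 200712_s_at in its place the shift was -0.31 (exact permutation p = 0.0173, adjusted 0.0288). MAPRE2 alone gave -0.04 (exact permutation p = 0.511). As MAPRE2 moved little, the shifts repeat the MAPRE1 differences at 12 h and are not separate evidence. Most of the 5 values hold a MAPRE1 signal, so their adjustment is not over separate questions. In all 5, repeated inductions of the same bulk populations were again treated as separate units. Such a difference between probe sets holds their binding strengths as well as RNA levels, so only its shift between groups can be read.

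CLIP1 encodes CLIP-170, which binds EB proteins and tubulin tails at growing ends. Its brightest probe set, 201975_at, ran from 323.5 to 509.5 in control cells and 388.8 to 524.5 in miR-28 cells at 12 h (medians 363.7 and 439.6). At 24 h it ran from 324.5 to 616.4 and from 458.4 to 633.4 (medians 465.5 and 545.1). Signals in miR-28 cells leaned to the upper part of the control range, with 6 of 6 arrays above the control median at 12 h and 5 of 6 at 24 h. The differences of 0.23 ± 0.13 and 0.26 ± 0.13 (log2, SE) were not called (limma, adjusted p = 0.697 and 0.329). The other 2 CLIP1 probe sets, 210716_s_at and 242287_at, differed by 0.12 ± 0.17 and 0.19 ± 0.23 at 12 h and by 0.19 ± 0.17 and 0.07 ± 0.23 at 24 h.

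CLASP1 and CLASP2 encode the CLASPs, which bind microtubule ends and favour their rescue. The probe sets of CLASP1 disagreed. On 240757_at the control arrays at 24 h ran from 313.1 to 441.4 (median 422.5) and the miR-28 arrays from 149.5 to 412.1 (median 264.5). On this probe set 5 of 6 miR-28 arrays were below every control array, and 1 stood within the control range. The difference was -0.68 ± 0.18 (log2, SE; 95% interval -1.06 to -0.30), or 1.6-fold lower, and passed the test narrowly (limma, adjusted p = 0.0449).

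The brighter CLASP1 probe set, 212752_at, ran from 726.6 to 1096 in control cells (median 855.5) and from 850.6 to 1134 in miR-28 cells (median 877) at 24 h. It differed by 0.08 ± 0.10 (95% interval -0.12 to 0.28; limma, adjusted p = 0.755), so the lower signal was seen on 1 of the 2 probe sets. At 12 h the differences were 0.04 ± 0.18 for 240757_at and 0.10 ± 0.10 for 212752_at. The change of the difference on 240757_at between the times, -0.72 ± 0.27, was not called (limma, adjusted p = 0.751). The call at 24 h was held in 10 of 35 alternatives, over which its adjusted p ran from 0.0116 to 0.622. It was lost without any of 5 control arrays at 24 h (A2, A3, B1, B2, B3), 5 miR-28 arrays at 24 h (A2, A3, B1, B2, B3), 2 control arrays at 12 h (A1, B3) or 4 miR-28 arrays at 12 h (A1, A3, B2, B3), with differences of -0.71 to -0.54 and adjusted p up to 0.107.

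None of the 5 CLASP2 probe sets was called at either time. The brightest, 212306_at, had medians of 2027 (control) and 1906 (miR-28) at 12 h and of 1756 and 1805 at 24 h, and its ranges overlapped. At 24 h it differed by 0.01 ± 0.10 (log2, SE; 95% interval -0.19 to 0.22). On 212309_at, 5 of 6 miR-28 arrays at 24 h were below every control array, with medians of 912.4 against 997.4 and a difference of -0.17 ± 0.09 (limma, adjusted p = 0.383). The remaining CLASP2 probe sets, 1555469_a_at, 212308_at and 1558759_s_at, differed by 0.06 ± 0.17, -0.14 ± 0.14 and -0.23 ± 0.18 at 24 h. The last of these had opposite signs in the populations, 0.22 in A and -0.69 in B.

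DCTN1 encodes p150Glued, the dynactin subunit that carries the EB-binding domain. Its 1 probe set, 211780_x_at, ran from 829.1 to 1200 in control cells and from 786 to 1202 in miR-28 cells at 12 h (medians 1065 and 1011), and from 919.7 to 1300 and 952.1 to 1310 at 24 h (medians 1105 and 1100). The groups covered the same range at both times. The differences were -0.04 ± 0.11 and 0.00 ± 0.11 (log2, SE), with a 95% interval of -0.24 to 0.23 at 24 h. By population the difference was 0.18 in A and -0.25 in B at 12 h, and -0.28 and 0.27 at 24 h, so its sign turned both ways. The difference between populations was not called at either time (-0.43 ± 0.19 and 0.55 ± 0.19; limma, adjusted p = 0.876 and 0.78).

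STMN1 encodes stathmin, the tubulin-binding protein that favours shrinkage and is abundant in dividing cells. Its brighter probe set, 200783_s_at, ran from 3256 to 4784 in control cells (median 3498) and from 2670 to 4015 in miR-28 cells (median 3748) at 12 h. At 24 h it ran from 3434 to 4622 (median 3947) and from 2566 to 3786 (median 3220). All 6 miR-28 arrays were below the control median at 24 h and 3 were below every control array, but the groups overlapped. The difference was -0.08 ± 0.12 at 12 h and -0.34 ± 0.12 at 24 h (log2, SE; 95% interval -0.58 to -0.09). At 24 h it was not called over all probe sets (limma, adjusted p = 0.142).

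**Figure D2:**
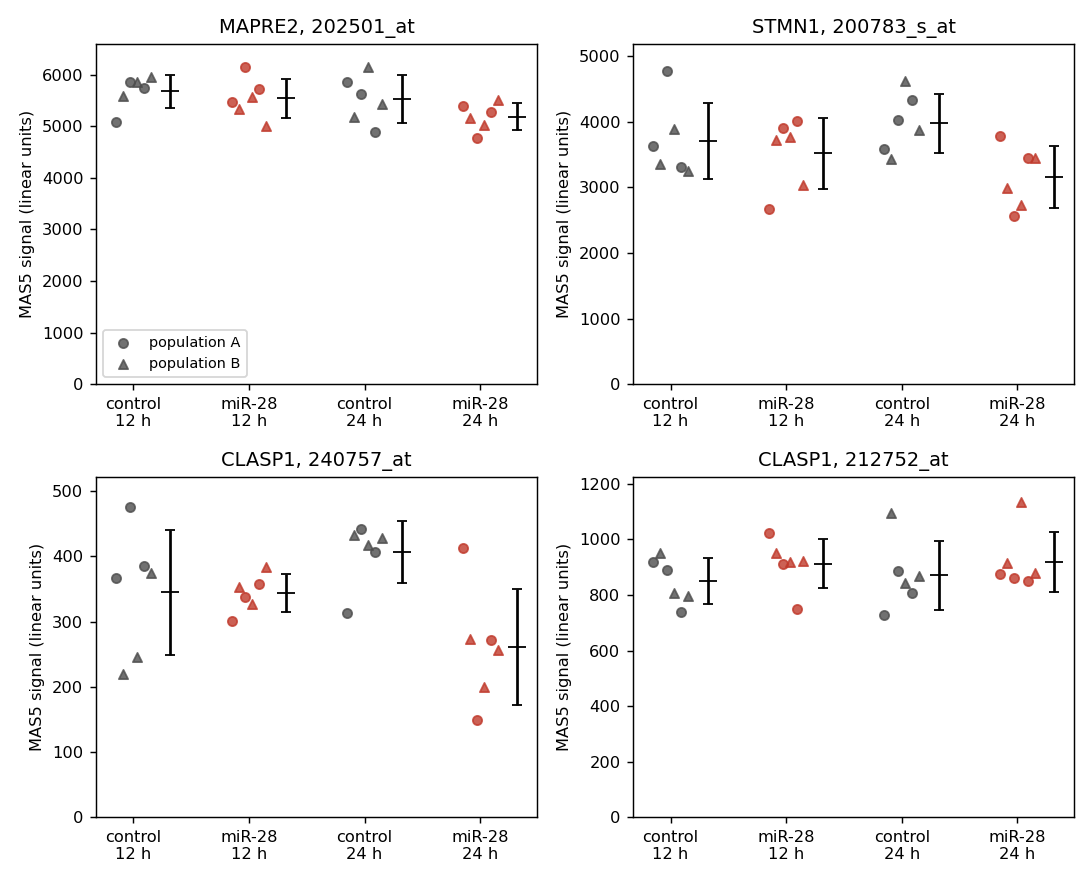
MAS5 signal (linear axes from 0) of MAPRE2 202501_at, STMN1 200783_s_at and the CLASP1 probe sets 240757_at and 212752_at on each of the 24 arrays, by vector and hours of induction; circles are population A, triangles population B, and bars are the mean with 1 SD (n = 6). CLASP1 240757_at is lower in miR-28 cells at 24 h (median 264.5 against 422.5) with 1 array inside the control range, and 212752_at is not.

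Counted over the members, 0 of 16 probe sets were called at 12 h (limma, adjusted p under 0.05), where 0.165% of all 27306 were. At an unadjusted p under 0.05 there were 2 of 16, both of MAPRE1, against 8.02% of all probe sets. At 24 h, 1 of the 14 probe sets of the other 7 genes was called, CLASP1 240757_at, which was lower. Over all probe sets 2.75% were called in either direction and 1.48% lower, which is 403 of 751; with median centring it was 198 of 623. The median difference of the members was -0.01 at 12 h over 16 and 0.00 at 24 h over 14 probe sets, beside 0.00 and 0.01 over all those tested. None of these 14 probe sets had groups without overlap at 24 h, where 1.36% of all probe sets had every miR-28 array below every control array. With the means of the bulk populations as the unit, 2 against 2, none of the 27306 probe sets was called at either time.

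**Figure D3:**
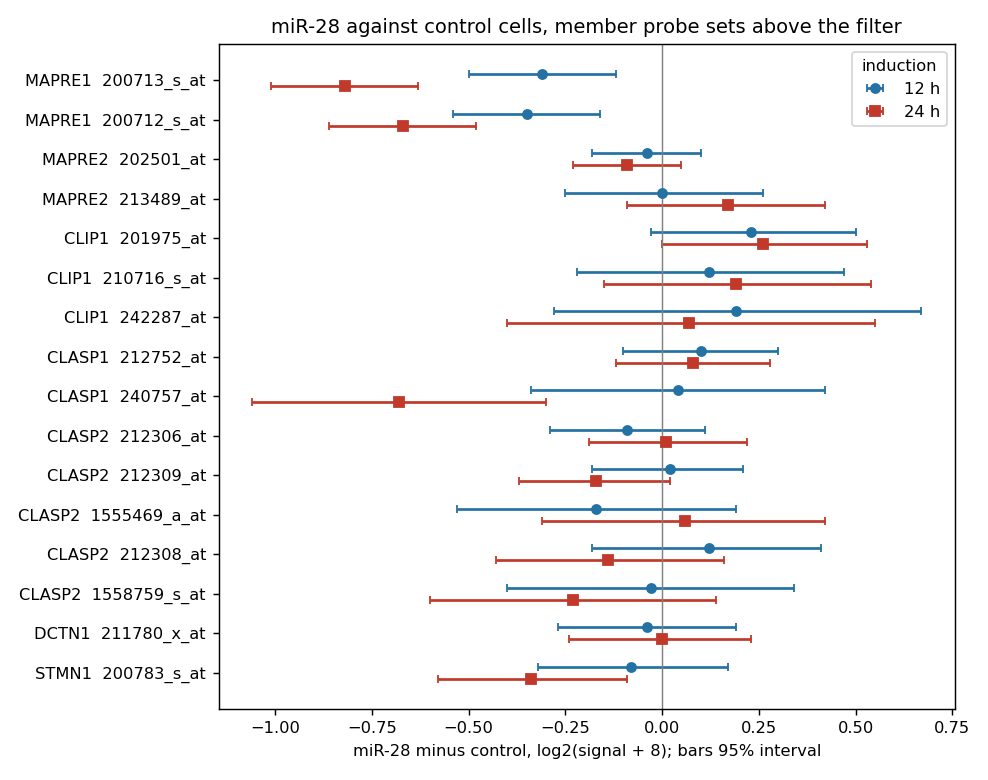
Difference between miR-28 and control cells in log2(signal + 8) for the 16 member probe sets above the filter, at 12 h (blue circles) and 24 h (red squares), with 95% intervals. The MAPRE1 probe sets lie at -0.31 and -0.35 at 12 h and at -0.82 and -0.67 at 24 h, where they are a description; CLASP1 240757_at lies at -0.68 at 24 h.

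With time, none of the 14 probe sets of the other 7 genes was called in control cells (3 at an unadjusted p under 0.05 in limma; 3.09% of all probe sets called). The 3 were all of CLASP2 and did not share a direction: 212306_at changed by -0.22 ± 0.10, 212308_at by 0.32 ± 0.15 and 1558759_s_at by 0.45 ± 0.19 (log2, SE; limma, adjusted p = 0.27, 0.266 and 0.211). In miR-28 cells, 0 of 14 were called between 12 h and 24 h (1 unadjusted, CLASP1 240757_at at -0.45 ± 0.19; 1.88% of all called). For the change in effect from 12 h to 24 h, 0 of 14 were called and 1 had an unadjusted p under 0.05, with 0% of all probe sets called. The 2 comparisons with time each share their arrays with the comparisons of the vectors. Between populations, 0 of 16 were called at 12 h and 0 of 14 at 24 h, with 1 and 2 at an unadjusted p under 0.05 and 0% of all probe sets called at both times. The largest such value was on CLASP2 1558759_s_at at 24 h, where the miR-28 difference in population B lay -0.91 ± 0.32 from that in A (limma, adjusted p = 0.78).

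Among 27 other plus-end genes, 21 were above the filter by their brightest probe set. At 12 h none was called (limma; 0.264% of all genes by their brightest probe set), and NAV2, a neuron navigator, had the largest statistic with 1.05 ± 0.40 (log2, SE; adjusted p = 0.483). At 24 h, 4 were lower and 1 was higher, with 3.79% of all genes called in either direction, 2.03% lower and 1.76% higher. The list's median was 0.02 at 12 h and -0.17 at 24 h, beside 0.01 and 0.02 over all genes.

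The values here are control and then miR-28 cells at 24 h (SD, n = 6). KNSTRN, a kinetochore and spindle protein, read 3069 ± 252 and 2179 ± 142, a difference of -0.49 ± 0.09 (log2, SE, limma adjusted p = 0.00231). GTSE1, which EB1 carries to growing ends, read 2732 ± 378 and 1972 ± 173, a difference of -0.46 ± 0.10 (limma adjusted p = 0.0139). TACC3, which works with clathrin and CKAP5 on spindle fibres, read 2775 ± 370 and 2024 ± 298, a difference of -0.46 ± 0.11 (limma adjusted p = 0.0182). At 12 h the TACC3 signal was 2007 ± 257 in control and 1896 ± 163 in miR-28 cells. From 12 h to 24 h it rose in control cells by 0.47 ± 0.11 (limma adjusted p = 0.021). In miR-28 cells it changed by 0.09 ± 0.11 (limma adjusted p = 0.774), so it did not fall with time there. PSRC1, a protein of spindle microtubules, read 1032 ± 91.6 and 830.3 ± 41.6 at 24 h, a difference of -0.31 ± 0.07 (limma adjusted p = 0.0237). DST, a spectraplakin that links microtubules to actin and intermediate filaments, read 1838 ± 203 and 2292 ± 178 at 24 h, a difference of 0.32 ± 0.08 (limma adjusted p = 0.0338). The probe sets of GTSE1 and DST, that of DCTN1 above and those of ARL2 and several tubulins below belong to a class (_x_at) that can also bind other, similar transcripts.

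Median centring of the arrays left KNSTRN called and not GTSE1, TACC3, PSRC1 or DST (adjusted p = 0.0688, 0.059, 0.152 and 0.0645), with every direction kept. The same 4 calls were lost with no filter on low values. Leaving out 1 array ended the call of TACC3 (miR-28 B1 at 24 h, -0.43, adjusted p = 0.0511) and of PSRC1 (control A3 or B2 or miR-28 A3 at 24 h, -0.29 to -0.28). PSRC1 was also not called without the 2 arrays of highest ACTB ratio (-0.28, adjusted p = 0.0606). That of DST ended without control A2, B2 or B3 or miR-28 A1, B1, B2 or B3 at 24 h (0.26 to 0.33, adjusted p = 0.0538 to 0.0868).

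Of 24 dynactin and dynein genes, the motor complex that p150Glued joins, 22 had a probe set of their own. All 22 were above the filter and 0 were called at 12 h. At 24 h DYNLT3, a dynein light chain, was the only one of the 22 called, beside 3.79% of all genes, so the count is near that share; the list's median was 0.07. At 12 h DYNLT3 read 1436 ± 234 (control) and 1103 ± 80.2 (miR-28; -0.37 ± 0.10, log2, SE; limma, adjusted p = 0.226). At 24 h it read 1382 ± 169 (control) and 1044 ± 137 (miR-28, SD, n = 6), a difference of -0.40 ± 0.10 (limma adjusted p = 0.0367). Its call was lost with median centring (-0.35, adjusted p = 0.169), with no filter (adjusted p = 0.14), without the 2 arrays of highest ACTB ratio (-0.34, adjusted p = 0.0814), and without control A3, B1 or B2 or miR-28 A2, A3, B1, B2 or B3 at 24 h (-0.40 to -0.34, adjusted p = 0.0621 to 0.0871).

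Tubulins are the subunits of the microtubule itself. Of 17 tubulin genes, 16 had a probe set of their own and 12 were above the filter. Of these 12, 0 were called between the vectors at either time. Their differences ran from -0.08 to 0.19 at 12 h and from -0.20 to 0.21 at 24 h, with medians of 0.02 and -0.08. The largest statistic at both times was that of TUBA1A, an alpha-tubulin, at 0.14 ± 0.08 and 0.21 ± 0.08 (limma, adjusted p = 0.721 and 0.2). All 7 genes of the tubulin folding cofactor list were above the filter, and only ARL2 was called at 24 h, lower. Over all genes 3.79% were called at that time and 2.03% lower. ARL2, the small GTPase that works with tubulin cofactors, read 1198 ± 108 (control) and 971.2 ± 123 (miR-28) at 12 h (-0.31 ± 0.11, limma adjusted p = 0.402). At 24 h it read 1352 ± 56.2 (control) and 875.9 ± 175 (miR-28), a difference of -0.64 ± 0.11 (limma adjusted p = 0.00135). Of 3 other stathmin genes only STMN4 was above the filter, with -0.08 at 12 h and 0.47 ± 0.49 at 24 h.

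**Figure D4:**
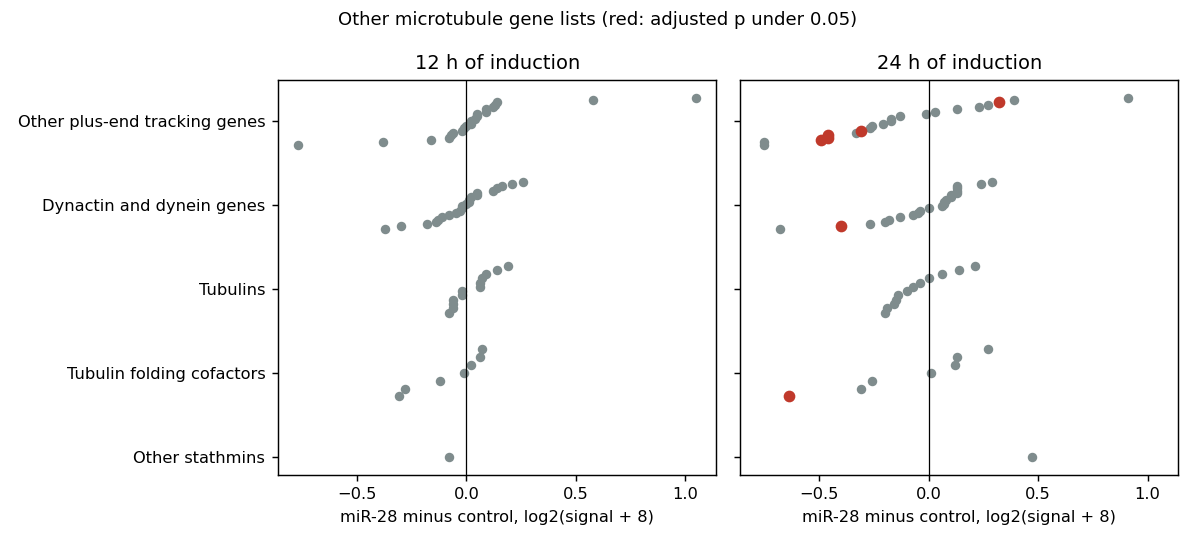
Difference between miR-28 and control cells in log2(signal + 8) at 12 h and 24 h for each gene of 5 other microtubule lists above the filter, 1 point per gene by its brightest probe set, spread vertically only to separate points; red points were called at an adjusted p under 0.05. None is red at 12 h, and at 24 h 5 plus-end genes, 1 dynactin or dynein gene and ARL2 of the folding cofactor list are.

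Of 11379 genes compared, the 5 whose signals were most like MAPRE1 200713_s_at over the 24 arrays were JAGN1 (r = 0.923), RAP1B (0.904), FAM83D (0.895), PSMA5 (0.892) and FAM217B (0.887). The arrays share the group differences, and within the groups the correlations were lower, at 0.64, 0.447, 0.576, 0.651 and 0.442. The ranking holds for this 1 probe set and includes the 24 h arrays by which MAPRE1 was chosen. Within groups the other MAPRE1 probe set correlated with it at r = -0.331. RAP1B is a small GTPase, FAM83D a scaffold of the spindle and PSMA5 a proteasome subunit. JAGN1 read 3517 and 3290 in control cells at 12 h and 24 h, and 2736 and 2059 in miR-28 cells. Its differences were -0.36 ± 0.08 and -0.67 ± 0.08 (log2, SE), and those of FAM83D were -0.08 ± 0.07 and -0.48 ± 0.07.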

How the data were processed

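The values are probe-set intensities on a linear scale, deposited by the authors and made with MAS5 per the submitters' processing notes; version and settings are not given in the sources used here. All arrays had a 2% trimmed mean of 500.07 to 500.08, and this scaling was kept. Of 54675 probe sets, 62 controls were left out; 41091 had 1 gene symbol, 1801 several and 11721 none. Arrays give no depth; precision is limited by their number.

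Values were taken as log2(intensity + 8), 8 being near their 10th percentile, which understates changes of dim genes. Probe sets with a mean above the median of all, 6.108, were fitted with limma 3.58.1 and statmod 1.5.0 (R 4.3.3): 4 group means, all 24 arrays, the bulk population as a random block (correlation -0.0249). As this correlation is negative, the block narrowed the standard errors between vectors and was no safeguard against the repeated use of populations. With it 45 probe sets were called at 12 h and 751 at 24 h, and with no block 37 and 618. Moderated statistics were two-sided, with Benjamini-Hochberg adjustment over 27306 probe sets, and called at an adjusted p under 0.05. Populations were compared in a fit with 8 means and no block. A gene outside the members was represented by its brightest probe set. Scripts were tested on simulated data. Of simulated log2 changes of 0.35, 4% were called at each time, and of those of 0.8, 43% at 12 h and 41% at 24 h.

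All 16 member probe sets above the filter are named, and of the 10 below it only CLASP2 238048_at. Of each other list, up to 6 called genes per comparison of the vectors are named, or the 1 with the largest statistic where none was called. The members and lists were chosen with earlier results of these data known. Same-numbered arrays of different groups correlated at -0.11 to 0.078 in their deviations. The medians were -0.0053 to 0.041, beside -0.013 to -0.0023 for other pairs, so whether the numbers pair arrays was not settled. Alternatives varied the pseudocount, filter, scaling, block, unit, population and arrays.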

Additional observations from a re-analysis of the deposited data

Results flagged for a closer look

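Among 64 sets of 6 arrays (16 member probe sets in 4 groups), 3 held an array that stood apart by Dixon's criterion (the gap to the nearest array over the range, 95% level); chance gives about 1 in 20. All 3 were of CLASP1. On 212752_at, miR-28 array A3 at 12 h read 750.7 with the others at 912.8 to 1022, and miR-28 array B2 at 24 h read 1134 with the others at 850.6 to 916.6. On 240757_at, control array A1 at 24 h read 313.1 with the others at 406.6 to 441.4.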

How the results depend on the processing

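The count of members called stayed at 0 at 12 h, with time in either vector, for the change in effect from 12 h to 24 h and between populations, in each of the 30 to 36 alternatives run for it. At 24 h the count of 1 became 0 with no filter, quantile normalization, median centring, no block, the replicate block, population means as the unit, population A alone, population B alone, 1 probe set per gene, and without the 2 arrays of highest ACTB ratio (the last 2 chosen after seeing the data). Leaving out 1 array gave 0 to 1. The cause was not tested, except that 1 probe set per gene drops CLASP1 240757_at by construction. With the replicate block the adjusted p of CLASP1 240757_at was 0.0889 (limma), and that block changed no other call of a named gene. MAPRE1 differed by -0.87 to -0.77 and by -0.82 to -0.52 at 24 h over the alternatives, and by -0.36 to -0.26 and -0.40 to -0.29 at 12 h, where it was never called (limma, adjusted p at least 0.152 and 0.0979). No called difference changed sign. Uncalled ones did between populations A and B alone: DCTN1 (0.18 and -0.25 at 12 h, -0.28 and 0.27 at 24 h), CLASP2 1558759_s_at at 24 h (0.22 and -0.69) and CLASP1 240757_at at 12 h (-0.29 and 0.37), among others. Quantile normalization and median centring moved the median difference of all probe sets to at most 0.068.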
